A study of Mus musculus with 20 samples.

Results

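The 10 genes described here, Clec4f, Vsig4, Timd4, Cd5l, Marco, C1qa, C1qb, C1qc, Adgre1 and Csf1r, are markers of resident Kupffer cells. They were chosen by gene symbol, and all 10 were present among the 20914 genes of the count table and passed the filter on low counts. RNA was sequenced from the liver (left lateral lobe) of 20 male mice of strain LiB12cKO at an age of 8 weeks. The 10 KO mice had the genotype HSD17B12lox/lox;Alb-CreCre/WT, with both alleles of Hsd17b12 floxed and 1 copy of Cre recombinase driven by the albumin promoter. The 10 WT mice, HSD17B12lox/lox;Alb-CreWT/WT, carried the same floxed alleles without Cre. Hsd17b12 encodes a reductase of the fatty acid elongation cycle, and the comparison asks what its loss in hepatocytes does to the liver. Because Cre was present in the KO mice alone, its own effects and those of losing Hsd17b12 cannot be told apart. The albumin promoter is active in hepatocytes, so the Kupffer cells measured here were not the cells targeted for deletion.

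Kupffer cells are the macrophages that live in the liver sinusoids, where they take up particles, bacteria, old red cells and lipoproteins from the blood. They are seeded before birth and maintain themselves under CSF1 receptor signalling and cues from hepatocytes, stellate cells and sinusoidal endothelium, through transcription factors such as LXR-alpha, SPI-C and ID3. When resident cells are lost, monocytes can enter and take on the same identity over time. TIM-4 is gained late in that process and is used as a sign of long residence. The C1q chains, F4/80 (Adgre1) and CSF1R are shared with other tissue macrophages, whereas CLEC4F is close to exclusive to Kupffer cells in the mouse.

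As a check of the labels, Hsd17b12 had 47.8 ± 2.39 CPM in KO livers and 152 ± 18.5 CPM in WT livers (mean ± SD, n = 10 each), and no KO value reached the lowest WT value. CPM are fragment counts set to a common library size with trimmed mean of M-values (TMM) factors. The libraries held 16693195 to 29124124 fragments assigned to genes. TMM factors averaged 1.18 ± 0.0579 in KO livers and 0.851 ± 0.06002 in WT livers, so library composition differed with genotype. Scaling by library size alone raised the median log2 fold change over tested genes by 0.47, and fold changes below use TMM unless stated. Of 12 hepatocyte genes 11 fell in KO, where 31.0% of all tested genes fell. With library size scaling 7 fell and 1 rose, where 6.71% of all tested genes fell and 68.4% rose. The summed level of the 12 hepatocyte genes was 68637 to 83546 CPM in KO mice and 105074 to 148557 CPM in WT mice. Its part in the results below was not tested.

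Of the 10 Kupffer markers, 8 rose in KO and 0 fell by edgeR's quasi-likelihood test at an adjusted p under 0.05, while Timd4 and Marco did not pass. The count of falls was also 0 at an unadjusted edgeR p under 0.05 and with DESeq2 at an adjusted p under 0.05. Among all 13670 tested genes 28.2% rose and 31.0% fell, 59.2% in either direction. The median log2 fold change was 0.77 over the 10 markers and -0.025 over all tested genes. Adgre1 had the highest fold change, 2.32-fold, followed by C1qb, Cd5l and Vsig4. Summed over the 10 markers, the level spanned 338 to 637 CPM in KO (median 433.8) and 172 to 350.5 CPM in WT (median 284). The 2 ranges overlapped only between the lowest KO mouse and the highest WT mouse. Mouse KO_391 stood apart from the other KO mice across the transcriptome: on the leading principal component (1000 genes of highest variance) it lay at 4.07, with the other KO mice at 28.45 to 58.21 and the WT mice at -45.60 to -22.49. Without it 9 markers rose, Timd4 included (log2 fold change 0.42; edgeR adjusted p = 0.0419), 0 fell, and the median was 0.81. This was not particular to KO_391. Over the 20 fits that each left out 1 mouse, Timd4 passed in 6 and the median ran from 0.71 to 0.83. In a piece of whole liver, more Kupffer cells and more RNA of these genes per cell cannot be told apart.

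**Figure D1:**
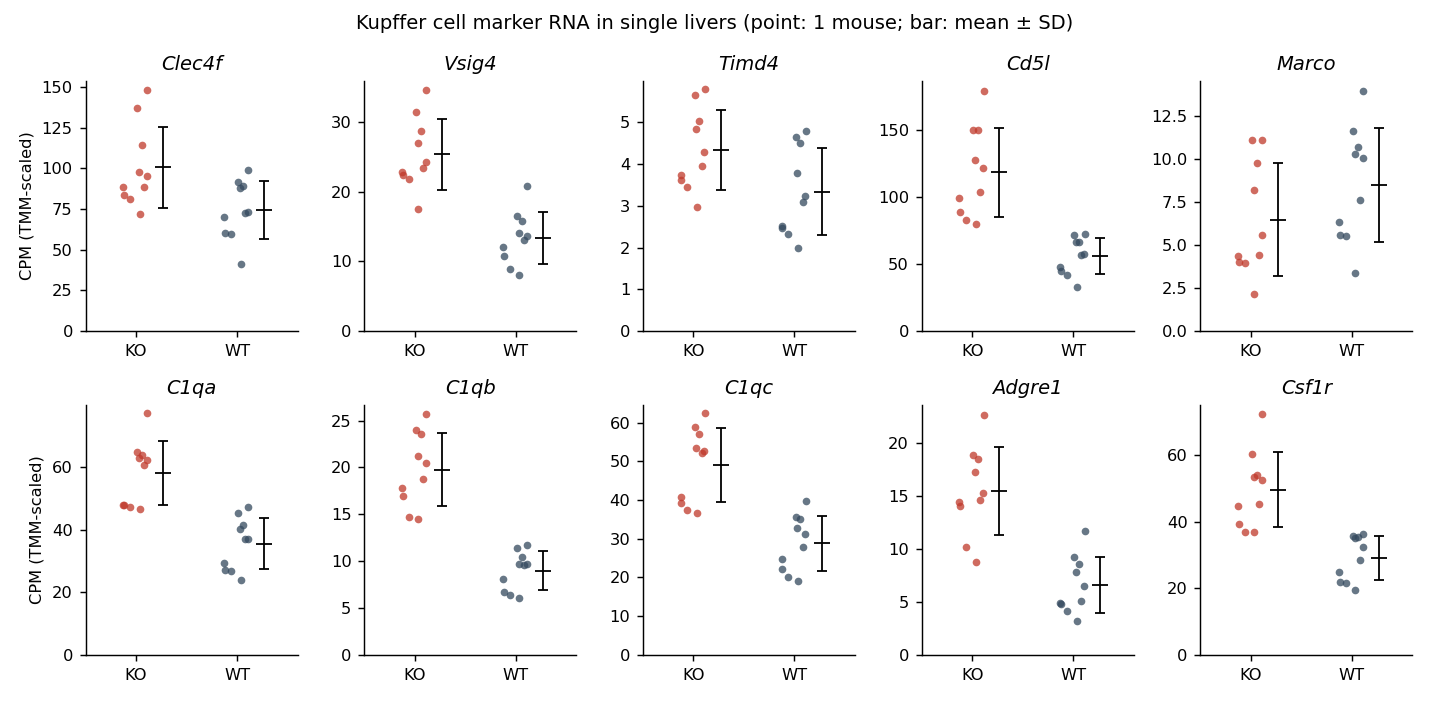
TMM-scaled CPM of each Kupffer marker in 10 KO mice (left in each panel) and 10 WT mice (right), with 1 point per mouse and bars for the group mean ± SD. Cd5l, C1qb and Csf1r show no overlap between the genotypes, whereas the Timd4 and Marco values of the genotypes lie over each other.

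The promoters of 4 members are printed, chosen among those at hand. Cd5l and C1qb did not overlap between genotypes, C1qc lies beside C1qb on chromosome 4 and rose less, and Marco was the marker with the lowest fold change. No promoter was at hand for Adgre1, which had the highest fold change, or for Csf1r, which did not overlap either. Each printed promoter runs 5′ to 3′ on the gene's own strand, from 250 bases before to 50 bases after the RefSeq promoter start (GRCm38.p6). For Marco and C1qb that start differs from the gene start in the coordinates given below, which come from the deposited annotation. Capitals mark GAGGAA, a core of sites bound by PU.1, the macrophage factor encoded by Spi1, or its reverse complement TTCCTC.
Cd5l (chr3:87357631-87357930, plus strand): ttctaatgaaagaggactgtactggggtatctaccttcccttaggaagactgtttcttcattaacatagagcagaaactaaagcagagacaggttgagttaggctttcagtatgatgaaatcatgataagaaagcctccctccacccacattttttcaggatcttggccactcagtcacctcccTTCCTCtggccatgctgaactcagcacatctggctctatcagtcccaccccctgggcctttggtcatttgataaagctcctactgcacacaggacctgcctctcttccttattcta
Marco (chr1:120504975-120505274, minus strand): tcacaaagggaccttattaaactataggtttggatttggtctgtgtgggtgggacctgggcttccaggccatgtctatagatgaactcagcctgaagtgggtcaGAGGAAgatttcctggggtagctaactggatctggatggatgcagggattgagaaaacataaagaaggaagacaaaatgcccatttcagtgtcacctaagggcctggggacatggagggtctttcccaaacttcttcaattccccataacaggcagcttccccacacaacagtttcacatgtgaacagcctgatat
C1qb (chr4:136886151-136886450, minus strand): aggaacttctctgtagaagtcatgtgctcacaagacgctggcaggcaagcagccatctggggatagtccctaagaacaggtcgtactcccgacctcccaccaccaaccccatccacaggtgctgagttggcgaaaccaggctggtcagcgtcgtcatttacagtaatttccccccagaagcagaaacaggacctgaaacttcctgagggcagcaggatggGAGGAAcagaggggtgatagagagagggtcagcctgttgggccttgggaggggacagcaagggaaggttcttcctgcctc
C1qc (chr4:136892865-136893164, minus strand): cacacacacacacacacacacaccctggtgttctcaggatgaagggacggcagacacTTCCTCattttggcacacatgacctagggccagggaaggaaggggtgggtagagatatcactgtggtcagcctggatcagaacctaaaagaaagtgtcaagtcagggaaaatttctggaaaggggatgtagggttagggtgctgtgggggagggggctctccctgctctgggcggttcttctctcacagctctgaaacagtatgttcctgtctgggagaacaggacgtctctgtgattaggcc

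RefSeq promoters were at hand for 7 members, which also include Clec4f, Vsig4 and Timd4. GAGGAA, searched on both strands, was found in 5 of the 7, all but Clec4f and Timd4, and in 28.3% of 32851 promoters of the same length. The marker with the lowest fold change, Marco, and the non-overlapping Cd5l and C1qb thus all held it. TGCTGAC, part of the site of MAF factors, was found on either strand in 1 of the 7 (Timd4) and in 4.67% of all promoters. GTGGGAA, a core bound by RBPJ, the effector of Notch signalling, was found in 0 of the 7 and in 6.38% of all promoters. Each match is a run of letters in the window and not a measured binding site.

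Clec4f, a C-type lectin that binds desialylated glycans (chr6:83644542-83656116, GRCm38 coordinates of the deposited annotation, minus strand, 7 exon blocks), rose in KO livers. Its level was 72.2, 91.9 and 148 CPM in KO and 41.2, 72.9 and 98.8 CPM in WT (lowest, median and highest of 10 mice each). Only 3 KO mice exceeded the highest WT mouse. This gave a log2 fold change of 0.44 (standard error, SE, 0.148; edgeR quasi-likelihood adjusted p = 0.0158), the smallest among the markers that passed.

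Vsig4, the complement receptor CRIg that clears C3b-coated bacteria from the blood (chrX:96247203-96293438, minus strand, 7 exon blocks), rose too. KO mice had 17.4, 23.8 and 34.5 CPM and WT mice 8.05, 13.4 and 20.7 CPM (lowest, median and highest). In 9 KO mice Vsig4 lay above every WT mouse. Its log2 fold change was 0.92 (SE 0.147; edgeR adjusted p = 1.77e-05).

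Timd4 encodes TIM-4, a receptor for phosphatidylserine on dying cells (chr11:46810799-46844333, plus strand, 9 exon blocks). It had 2.98, 4.12 and 5.80 CPM in KO and 2.00, 3.16 and 4.79 CPM in WT (lowest, median and highest). These values rest on 80 to 138 fragments per KO mouse and 38 to 110 per WT mouse. The groups overlapped widely, with 4 KO mice above the highest WT mouse. The log2 fold change of 0.37 (95% interval 0.017 to 0.72) missed the threshold by edgeR's quasi-likelihood test (adjusted p = 0.0657). Timd4 is the member whose call depended most on the method: DESeq2's Wald test gave an adjusted p of 0.0461, and leaving out 1 mouse at a time gave edgeR adjusted p-values of 0.0307 to 0.123, below the threshold in 6 of 20 cases.

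Cd5l encodes AIM, a secreted scavenger-receptor protein that Kupffer cells release into the plasma and that is a target of LXR (chr3:87357881-87371074, plus strand, 6 exon blocks). Its level was 80.1, 113 and 179 CPM in KO and 33.2, 57.4 and 72.4 CPM in WT (lowest, median and highest). All 10 KO mice lay above all 10 WT mice, as was the case for 7.10% of tested genes. Cd5l had a log2 fold change of 1.08 (SE 0.163; edgeR adjusted p = 9.00e-06).

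Marco, a scavenger receptor for bacteria and particles carried by a subset of Kupffer cells, mainly around the portal tracts (chr1:120474538-120505084, minus strand, 17 exon blocks), was the member with a negative fold change. KO mice had 2.13, 5.01 and 11.1 CPM and WT mice 3.37, 8.82 and 13.9 CPM (lowest, median and highest). No KO mouse exceeded the highest WT mouse, and 1 KO mouse lay below the lowest WT mouse. Marco's log2 fold change was -0.41 (SE 0.287, 95% interval -1.005 to 0.19; edgeR adjusted p = 0.231), and 0.056 (adjusted p = 0.876) with library size scaling. The coefficient of variation of Marco was 50.8% in KO, the highest of the 10 markers there, and 38.9% in WT, where that of Adgre1 was 40.5%.

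The 3 chains of C1q, which form the recognition unit of the classical complement pathway and are made chiefly by macrophages, rose together. They lie side by side within chromosome 4, C1qb at chr4:136880145-136886177, C1qc at chr4:136889802-136892914 and C1qa at chr4:136895916-136898844, all on the minus strand with 3 exon blocks each. C1qa had 46.6, 61.5 and 77.3 CPM in KO and 24.1, 37.0 and 47.1 CPM in WT (lowest, median and highest), and 9 KO mice lay above every WT mouse. Its log2 fold change was 0.71 (SE 0.126; edgeR adjusted p = 5.80e-05). C1qc had 36.7, 52.4 and 62.5 CPM in KO and 19.0, 29.6 and 39.6 CPM in WT, and 7 KO mice lay above every WT mouse. The log2 fold change of C1qc was 0.76 (SE 0.138; edgeR adjusted p = 7.42e-05).

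C1qb had the highest fold change of the C1q chains. It had 14.5, 19.6 and 25.7 CPM in KO and 6.06, 9.64 and 11.8 CPM in WT (lowest, median and highest), with no overlap between the genotypes. Its rise of 1.13 on the log2 scale (SE 0.133; edgeR adjusted p = 2.61e-07) had the smallest p of the 10 markers. C1q protein holds the chains in equal numbers, and their RNA levels can be set beside each other per kilobase. Of the summed C1q level per kilobase (RPKM), C1qb made up 15.7 ± 1.51% in KO and 12.4 ± 1.62% in WT, C1qa 45.3 ± 1.52% in KO and 47.8 ± 1.41% in WT, and C1qc 39.0 ± 1.09% in KO and 39.8 ± 1.31% in WT, each with its SD over 10 mice. The C1qb shares of the genotypes overlapped, spanning 13.1% to 17.9% in KO and 10.7% to 16.5% in WT. Exons of C1qb overlap those of a gene with no symbol over 570 of its 1062 exon bases; fragments in that stretch can be ambiguous between the genes, so the C1qb level and share may be understated in both genotypes.

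Adgre1 encodes F4/80, the adhesion G protein-coupled receptor used as a general mouse macrophage marker (chr17:57358686-57483529, plus strand, 22 exon blocks). Its level was 8.75, 14.97 and 22.7 CPM in KO and 3.25, 5.82 and 11.8 CPM in WT (lowest, median and highest). In 8 KO mice it lay above every WT mouse. Adgre1 had a log2 fold change of 1.22 (SE 0.208, 95% interval 0.78 to 1.65; edgeR adjusted p = 4.09e-05).

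Csf1r, the receptor for CSF1 and IL-34 on which Kupffer cells depend for survival (chr18:61105572-61131139, plus strand, 22 exon blocks), also separated the genotypes. KO mice had 36.9, 48.9 and 72.5 CPM and WT mice 19.5, 30.5 and 36.2 CPM (lowest, median and highest). No WT mouse reached the lowest KO mouse, though the gap between the nearest mice was small. Csf1r rose by 0.77 on the log2 scale (SE 0.139; edgeR adjusted p = 7.66e-05). Together, Cd5l, C1qb and Csf1r made 3 of 10 markers with all KO mice above all WT mice, where 7.10% of all tested genes did so.

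In the authors' deposited table, made with the ROTS test, the fold changes had the same signs and similar sizes. It gives a log2 fold change of 1.15 for Adgre1, 1.07 for Cd5l and C1qb, and 0.44 for Clec4f (false discovery rate, FDR, 0.0292). Marco has -0.39 there, with an unadjusted ROTS p of 0.0443 and an FDR of 0.0570. For Timd4 the authors' deposited table has 0.32 (FDR 0.0707).

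Compared per kilobase of transcript, 4 markers led in both genotypes. In KO the levels were highest for Cd5l (58.2 ± 16.3 RPKM), C1qa (53.8 ± 9.41), C1qc (46.6 ± 9.08) and Clec4f (42.0 ± 10.5). In WT they were highest for C1qa (32.7 ± 7.53 RPKM), Clec4f (30.9 ± 7.29), Cd5l (27.4 ± 6.59) and C1qc (27.3 ± 6.70; all SD, n = 10). Means of neighbours within these 4 did not differ by more than their SD in either genotype, a spread that ignores pairing within mice. Within mice, Cd5l lay above Clec4f in every KO mouse, though barely in KO_391 (41.13 against 41.08 RPKM). Clec4f lay above Cd5l in every WT mouse but WT_415 (30.6 RPKM for Clec4f and 35.1 for Cd5l). Below them in KO came C1qb (18.6 ± 3.62 RPKM), Vsig4 (17.7 ± 3.55), Csf1r (12.8 ± 2.91), Adgre1 (4.77 ± 1.27), Marco (3.25 ± 1.64) and Timd4 (1.99 ± 0.440). The WT order was Vsig4 (9.31 ± 2.61 RPKM), C1qb (8.45 ± 1.94), Csf1r (7.49 ± 1.71), Marco (4.27 ± 1.66), Adgre1 (2.04 ± 0.820) and Timd4 (1.53 ± 0.476). Adgre1 stood above Marco in KO and Marco above Adgre1 in WT, in every mouse of each genotype. The nearest values were 5.79 RPKM for Adgre1 and 5.55 for Marco in KO_416, and 1.58 and 1.69 in WT_409. The gap between the means exceeded the SD of either gene in WT and lay within the SD of Marco in KO.

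Mice with much of 1 marker had much of the others. With each genotype's mean removed, log2 CPM correlated positively in all 45 pairs of markers over the 20 mice, with a median Pearson's r of 0.75 and a range of 0.22 to 0.98. The median was 0.76 among KO mice and 0.79 among WT mice, and 0.70 without KO_434 and WT_429, the mice farthest from their group means. These values describe libraries that share 1 scaling factor per mouse. C1qa and C1qc were most alike (r = 0.98), Clec4f and Vsig4 next (0.93), and Clec4f and Marco least (0.22). Cd5l had the highest median r with the other 9 markers (0.85), and Marco (0.62) and Adgre1 (0.66) the lowest. Between 4 and 9 of the 10 markers exceeded the highest WT value in each KO mouse, with a median of 7. KO_434 had the highest summed level of all mice (637 CPM), and KO_391 had 381 CPM, within the KO range.

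**Figure D2:**
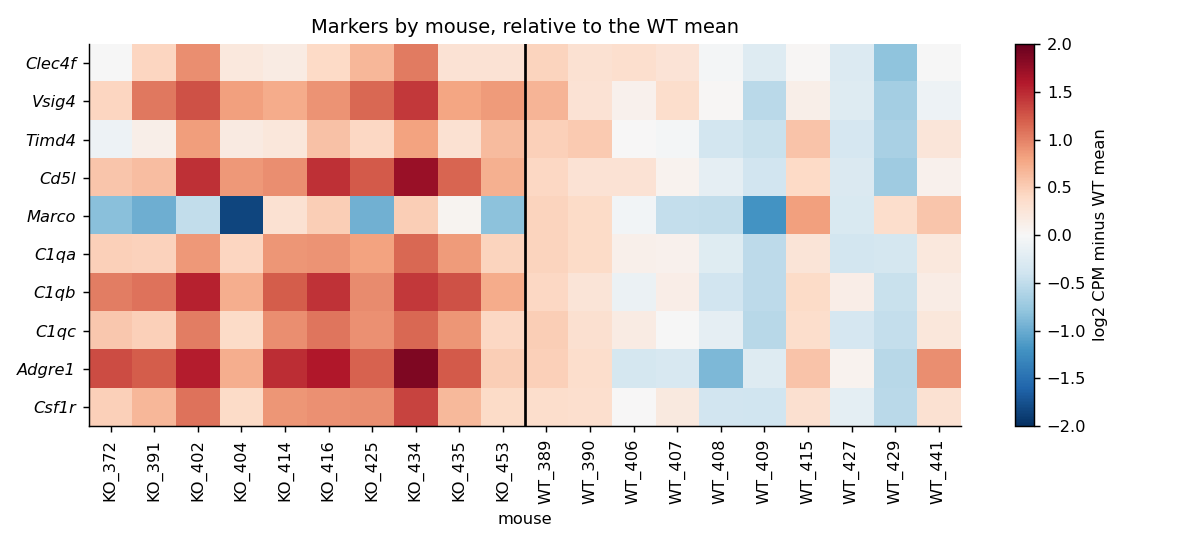
Log2 CPM of each marker minus its mean over the 10 WT mice (colour), with markers in rows and mice in columns, KO left and WT right. Rows other than Marco are mostly above the WT mean in KO, the column of KO_434 is high in every row, and that of WT_429 is low in every row but Marco.

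The rise of the markers was then set against macrophage RNA as a whole. The 10 genes used as a macrophage scale (Ptprc, Itgb2, Aif1, Tyrobp, Fcer1g, Laptm5, Fcgr1, Cd53, Cybb and Mpeg1) are expressed across macrophages and monocytes, and their geometric mean was 0.81 higher in KO on the log2 scale. Scaled to these genes, the Kupffer markers had a median log2 fold change of -0.032, with 1 of 10 higher and 1 of 10 lower in KO, where 4.84% of all genes were called higher and 76.2% lower. Adgre1 was still higher (log2 fold change 0.44; edgeR adjusted p = 0.0231), and Marco was lower by more than 2-fold (-1.26, adjusted p = 2.08e-07). C1qb (0.33, adjusted p = 0.0672) and Cd5l (0.28, 0.127) had positive values that missed the threshold, and Clec4f (-0.36, 0.0630) and Timd4 (-0.38, 0.0610) negative ones. With library size scaling, in contrast, 9 of 10 markers were higher and 0 lower, where 68.4% of all genes were higher and 6.71% lower, and the marker median was 1.23. Timd4 passed there (0.83, edgeR adjusted p = 3.30e-04).

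**Figure D3:**
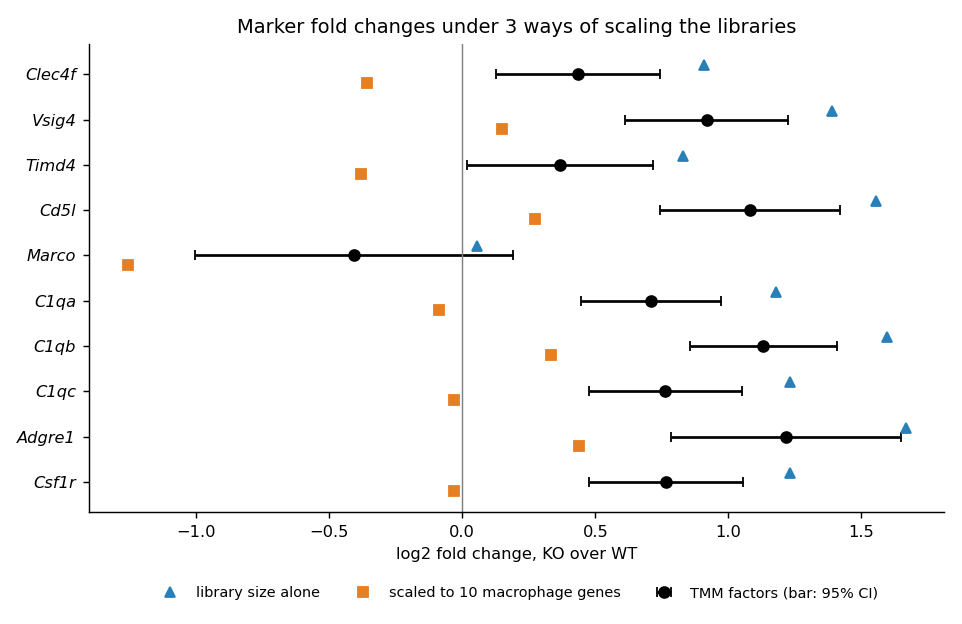
Log2 fold change of KO over WT for each marker with TMM (circles, bars for the 95% interval), library size scaling (triangles) and scaling to 10 macrophage genes (squares). Library size scaling moves all markers up together, scaling to macrophage genes moves them around 0, and Marco lies lowest under each.

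Taken per unit of Adgre1 in the same mouse, the markers also differed from each other. The ratio of Marco to Adgre1 CPM was 0.208, 0.394 and 0.586 in KO and 0.655, 1.27 and 2.42 in WT (lowest, median and highest), with no overlap. Timd4 per Adgre1 was 0.195, 0.263 and 0.574 in KO and 0.323, 0.521 and 0.759 in WT, and these ranges overlapped. Clec4f per Adgre1 averaged 6.76 ± 1.75 in KO and 12.6 ± 5.12 in WT (mean ± SD). Means of C1qb per Adgre1 lay closer, at 1.31 ± 0.184 in KO and 1.47 ± 0.371 in WT, as did those of Cd5l, at 7.83 ± 1.69 in KO and 9.27 ± 3.12 in WT. All 9 mean ratios were lower in KO, and only that of Marco separated every KO mouse from every WT mouse. These ratios do not depend on the scaling of the libraries, and they share Adgre1, the marker with the highest fold change, as the denominator.

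**Figure D4:**
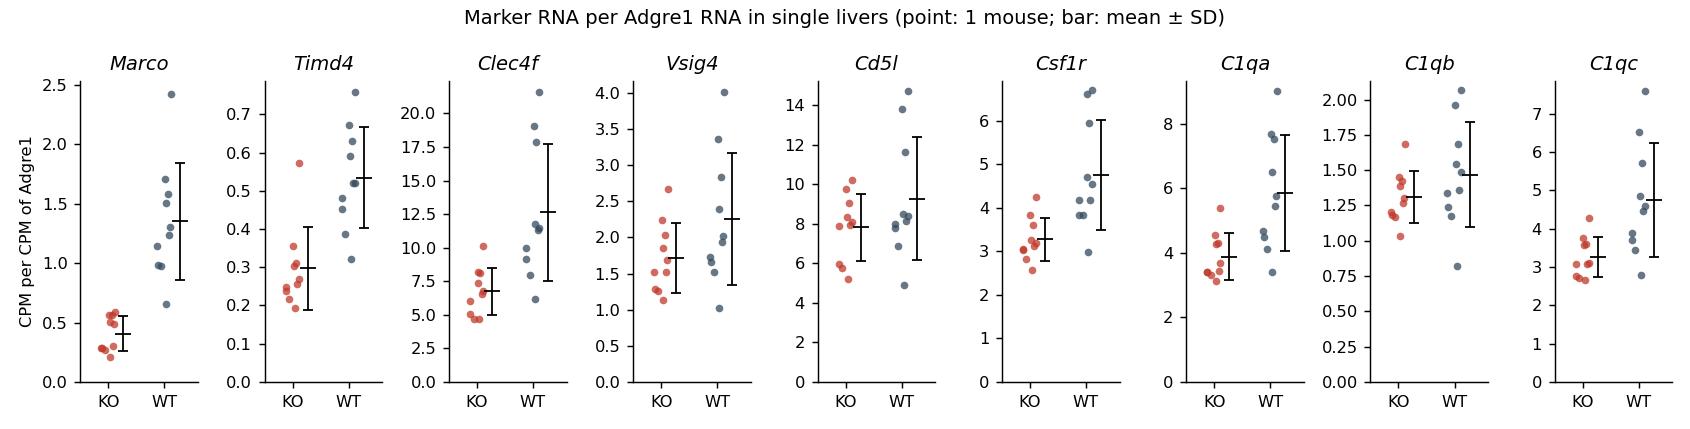
CPM of each other marker divided by Adgre1 CPM in the same mouse, KO left and WT right, with 1 point per mouse and bars for the group mean ± SD. Marco per Adgre1 is 0.208 to 0.586 in KO and 0.655 to 2.42 in WT, and the other 8 ratios overlap between the genotypes.

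Other genes of Kupffer identity changed less evenly. Of 10 such genes 6 rose and 1 fell, with a median log2 fold change of 0.47, and 8 had a positive one. Their summed level was similar, with 182, 209 and 258 CPM in KO and 165, 209 and 274 CPM in WT (lowest, median and highest). Most of that sum came from Slc40a1, which fell (76.3 CPM in KO and 95.3 in WT), and Hpgd (76.4 and 67.8). It therefore says little of the genes at lower levels. Clec1b, the podoplanin receptor CLEC-2, rose to 10.6 ± 1.73 CPM in KO, against 6.21 ± 1.72 CPM in WT (log2 fold change 0.77; edgeR adjusted p = 4.91e-05). Folr2, a folate receptor of resident macrophages, rose by 0.80 on the log2 scale, and Cdh5, a cadherin that Kupffer cells share with endothelium, by 0.69. Slc40a1, the iron exporter ferroportin, fell by 0.32 (edgeR adjusted p = 0.0279) but had 0.14 with library size scaling. Cd163, the haemoglobin scavenger receptor, had 9.79 ± 5.29 CPM in KO and 12.9 ± 6.57 CPM in WT (edgeR adjusted p = 0.249). Like Marco, Cd163 had a negative log2 fold change with TMM (-0.40), one near 0 with library size scaling (0.061) and a call as lower on the macrophage scale (-1.17, edgeR adjusted p = 0.00214), yet the deviations of the pair hardly correlated over the 20 mice (r = 0.17).

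Of 13 transcription factors of Kupffer identity 4 rose and 3 fell (30.8% and 23.1%). These shares lay near the 28.2% and 31.0% of all tested genes. Spi1, which encodes PU.1, rose by 0.90 on the log2 scale (edgeR adjusted p = 1.41e-04). Nr1h3, which encodes LXR-alpha and is also expressed by hepatocytes, fell to 83.8 ± 8.04 CPM in KO, against 114 ± 6.83 CPM in WT (log2 fold change -0.45, adjusted p = 5.73e-07), but not with library size scaling (0.023). Spic, a factor of haem-handling macrophages, had -0.056 (edgeR adjusted p = 0.873) and Id3, an inhibitor of DNA binding needed for Kupffer development, -0.17 (0.689). Among 11 LXR targets, most of which hepatocytes also express, 6 rose and 4 fell. Abcg1, a cholesterol exporter of macrophages, rose by 1.17, beside the 1.08 of the LXR target Cd5l.

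The ligands of Csf1r did not pass the test. Csf1 had 9.82 ± 1.99 CPM in KO and 9.02 ± 2.31 CPM in WT (log2 fold change 0.12; edgeR adjusted p = 0.480), and Il34 had 2.98 ± 0.699 CPM in KO and 2.65 ± 0.803 CPM in WT (0.17; 0.444). Both passed with library size scaling, at 0.59 for Csf1 and 0.64 for Il34. Within the CSF1R axis of 10 genes 5 rose and 1 fell, including Tyrobp, the signalling adaptor DAP12, which rose by 0.98 (edgeR adjusted p = 9.92e-06). The 12 tested niche genes are ligands, receptors and adhesion molecules of the signals between Kupffer cells and their neighbours. Of these 4 rose, a share near the 28.2% of all tested genes, among them the ligand Tgfb1 at 0.79 and the receptor Notch1 at 0.56. None of them fell, where 31.0% of all tested genes did, and 11 had positive fold changes.

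The partners of C1q fell in KO livers. All 11 other classical pathway components and regulators, mainly made by hepatocytes, fell, 5 of them without overlap (6.47% of all tested genes), with a median log2 fold change of -0.62; with library size scaling 5 fell and 0 rose. C2, which joins C4b to form the C3 convertase, had 93.7 ± 11.2 CPM in KO and 149 ± 16.6 CPM in WT (-0.67; edgeR adjusted p = 1.22e-07). Serping1, the C1 inhibitor, fell by 0.65. Of 10 complement and C1q receptors 6 rose and 3 fell, with the anaphylatoxin receptors C3ar1 and C5ar1 at 1.25 and 1.14, beside 0.92 for Vsig4. Among 17 tested scavenger and efferocytosis genes, which share functions with Marco and Timd4, 9 rose and 3 fell. Gas6, the bridge between dying cells and the receptors Axl and Mertk, rose to 96.0 ± 28.4 CPM in KO, against 22.9 ± 4.81 CPM in WT, while Timd2, a relative of Timd4 that hepatocytes express, fell by 1.03.

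Genes shared by all macrophages, and those of lipid-associated macrophages, had medians above that of the Kupffer markers. Of 18 general macrophage genes 16 rose and 0 fell, with a median of 0.98 and a summed level of 329.9 to 667.5 CPM in KO and 160.4 to 436.0 CPM in WT. Cd68, a lysosomal glycoprotein, had 14.0 ± 5.16 CPM in KO and 5.21 ± 0.827 CPM in WT (log2 fold change 1.42; edgeR adjusted p = 4.62e-07), and Ptprc, the leukocyte antigen CD45, rose by 0.60. Of 12 lipid-associated macrophage genes 11 rose and 0 fell, with a median of 1.86 and a summed level of 231 to 666 CPM in KO and 97.6 to 205 CPM in WT. Trem2, the lipid-sensing receptor of these cells, had 3.62 ± 2.02 CPM in KO and 0.876 ± 0.391 CPM in WT (2.04; edgeR adjusted p = 1.53e-05), and Gpnmb and Mmp12 rose by 4.47 and 5.09. On the macrophage scale the lipid-associated list had a median of 1.06, where that of the Kupffer markers was -0.032. Which liver cells the RNA of the lipid-associated list came from was not tested. Monocyte genes rose in 5 of 7 tested cases, with a summed level of 21.5 to 48.5 CPM in KO and 12.6 to 30.7 CPM in WT. Ccr2, the chemokine receptor of classical monocytes, had 3.31 ± 1.41 CPM in KO and 1.71 ± 1.08 CPM in WT (0.95; edgeR adjusted p = 0.00950), and Ly6c2, which has a near-identical neighbour in Ly6c1, did not pass the filter, with 1 to 24 fragments per KO mouse and 0 to 21 per WT mouse. The part of monocytes and lipid-associated macrophages in the rise of Adgre1, Csf1r and the C1q chains, which they share, was not tested.

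**Figure D5:**
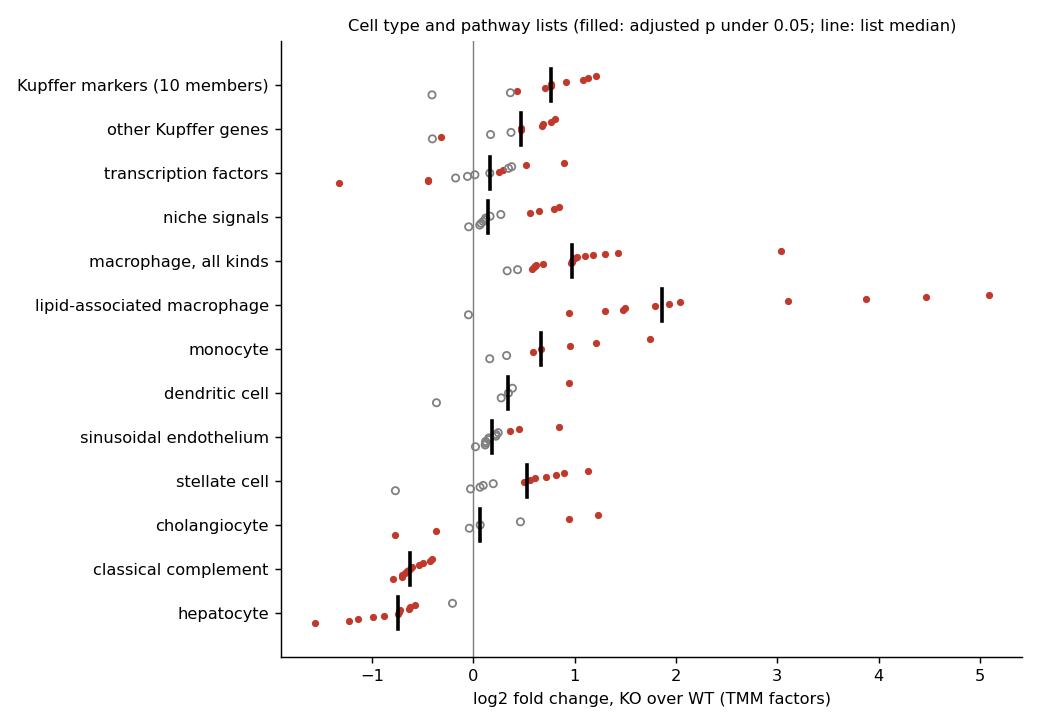
Log2 fold change of KO over WT (TMM) for each tested gene of the Kupffer markers and of 12 other gene lists, 1 row per list; filled points are genes with an adjusted p under 0.05, open points the rest, and bars list medians. The Kupffer markers have a median of 0.77, general macrophage genes 0.98, lipid-associated macrophage genes 1.86 and hepatocyte genes -0.74.

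Over single mice, with genotype means removed, the mean of the 10 markers followed other Kupffer genes closely (r = 0.94 over 20 mice) and general macrophage genes less so (0.80). It followed lipid-associated macrophage genes (0.50) and monocyte genes (0.36) more loosely. The r with sinusoidal endothelial genes was 0.48, with stellate genes 0.55 and with hepatocyte genes -0.075, which became 0.33 without KO_434 and WT_429. In the endothelial list 3 of 12 genes rose, a share near the 28.2% of all tested genes. None fell, where 31.0% of all tested genes did, and all 12 fold changes were positive. In the stellate list 7 of 12 rose and 0 fell. The summed endothelial level was 336 to 418 CPM in KO and 237 to 450 CPM in WT, and the stellate level 324 to 452.8 CPM in KO and 223 to 385 CPM in WT.

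The 8 genes most like the markers were ranked by Pearson's r of their deviations with the mean of the markers, over 20 mice and 10775 genes. They were Fcgr3 (r = 0.90), Pla2g7 (0.88), Ptgs1 (0.87), Slc11a1 (0.86), Adgre4 (0.86), Axl (0.86), Sdc3 (0.85) and Fcer1g (0.85), of which 5 were also among the 8 highest by Spearman's rho. Fcgr3 is an activating Fc receptor, Fcer1g the chain it signals through, Slc11a1 a metal transporter of phagosomes and Axl a receptor for Gas6. The difference between the genotype means was removed before this ranking, and all 8 rose in KO. Log2 fold changes ran from 0.36 for Ptgs1, a cyclooxygenase (edgeR adjusted p = 0.0178), to 1.16 for Pla2g7, a lipase that inactivates platelet-activating factor (adjusted p = 8.37e-04). Axl had 30.3 ± 6.35 CPM in KO and 14.3 ± 3.54 CPM in WT (1.08; adjusted p = 1.14e-06).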

How the data were processed

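Liver RNA of 10 KO and 10 WT mice was compared, with genotype from the sample titles and labels. The authors deposited whole-number fragment counts per gene, a normalized signal (each count divided by 1 factor per mouse, within a relative 0.0102 of the TMM-scaled CPM computed here) and RPKM, that signal per kilobase of exon. Rsubread and RefSeq mm10 stand in the names of the deposited files, whereas HISAT2 2.0.5 and DESeq2 stand in the submitters' processing notes. Whether strand was used in counting is unknown here. From the authors' deposited ROTS table the log2 fold change, the p-value and the FDR (adjusted p-value) were read. Not used here were 25 columns of mapping statistics.

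Counts were tested with edgeR 4.0.16 in R 4.3.3: filterByExpr (minimum count 10, minimum total 15) kept 13670 of 20914 genes, losing 0.0858% of fragments. Of the genes in the table, 620 lack a symbol. TMM scaling and a robust quasi-likelihood F test of KO against WT followed, with Benjamini-Hochberg adjustment over all tested genes and a threshold of 0.05. Log2 CPM used a prior count of 2. P-values measure the spread between mice; the labels name no litter or batch.

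The members and the 21 other gene lists were chosen with earlier results of these data known, and some genes are in more than 1 list. A gene of the macrophage lists is not reported here and was left out of them. Named genes are the members, 14 others listed by name with Hsd17b12, up to 4 genes per list with the smallest adjusted p (of which some are described), and the 8 genes most like the members among those whose mean log2 CPM reached 1. Gene coordinates come from the deposited annotation and promoters from RefSeq. Alternatives were DESeq2 1.42.0, other scalings and filters, limma 3.58.1 on log2 RPKM, and leaving out each mouse. Total fragments limit the low-level members, Timd4 and Marco.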

Additional observations from a re-analysis of the deposited data

Results flagged for a closer look

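Over 52 sets of 10 mice (the markers' levels, shares and ratios in each genotype), 2 mice stood further from their group than Dixon's 95% limit allows, which chance does in about 1 in 20 sets. Timd4 per Adgre1 was 0.574 in mouse KO_453, where the next highest KO mouse had 0.355. The share of C1qb in the summed C1q level was 16.5% in mouse WT_427, where the next highest WT mouse had 13.003%.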

How the results depend on the processing

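No paired analysis was possible because each mouse number belongs to 1 mouse and pairs no KO with a WT mouse. Leaving out each of 20 mice left 8 to 9 markers called and 0 lower, with a median log2 fold change of 0.71 to 0.83; the count over all genes ran from 7586 to 8239. Timd4 passed in 6 of these fits, and the other 9 markers kept their calls in all of them. Among 11 other alternatives, library size scaling moved the marker median to 1.23 and Marco to 0.056. Timd4 passed there, with DESeq2's Wald test and with limma on log2 RPKM at either pseudocount. Scaling to 10 macrophage genes left 1 marker higher and 1 lower, a median of -0.032, and log2 fold changes of -0.36 for Clec4f, -0.38 for Timd4, -0.088 for C1qa, -0.032 for C1qc and -0.033 for Csf1r, while Vsig4 (0.15), Cd5l (0.28) and C1qb (0.33) no longer passed; by its construction this scaling subtracts the macrophage rise of 0.81. Adgre1 passed under each alternative, with log2 fold changes of 0.44 to 1.67. Timd4 (38 to 138 fragments) is the member most limited by depth.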

Other observations

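Genes of other immune and liver cells were counted as well. Neutrophil genes, of which 3 of 8 were tested, had a summed level of 3.62 to 11.2 CPM in KO and 1.22 to 8.10 CPM in WT. B cell genes had a summed level of 2.07 to 6.39 CPM in KO and 1.52 to 8.16 CPM in WT, and in the dendritic list 1 of 5 tested genes rose. Of 10 T and NK cell genes only 2 were tested, and they differed. Cd4, a T helper cell receptor, was lower in KO, with 1.16 ± 0.387 CPM in KO livers and 3.13 ± 0.932 CPM in WT livers (mean ± SD, n = 10, log2 fold change -1.42, edgeR adjusted p = 4.43e-06). Lck did not pass (log2 fold change -0.065, edgeR adjusted p = 0.907). Cd3e, Cd3g, Cd3d and Cd8a were among the genes that missed the filter. The cell source of the Cd4 RNA was not tested. Among bile duct genes 2 of 7 rose and 2 fell (28.6% each), near the 28.2% and 31.0% of all tested genes. All 6 tested proliferation genes rose, with a median log2 fold change of 2.18 and a summed level of 12.1 to 121 CPM in KO and 5.20 to 18.3 CPM in WT, where the values of the genotypes overlapped. Their mean followed the Kupffer markers over mice only loosely, with r = 0.26 over 20 mice with genotype means removed.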
